A study of Mus musculus with 2 samples.

Results

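The glomerular basement membrane genes described here are 8 of 21755 protein-coding genes: Col4a1, Col4a2, Col4a3 and Col4a4, which encode chains of type IV collagen, Lama5, Lamb2 and Lamc1, which encode laminin chains, and Agrn, which encodes the proteoglycan agrin. They were chosen by name from textbook knowledge of this membrane, with earlier results of these data known, and no measured value enters the rule. Each gene was taken with 50 kb on either side, and the 2 collagen pairs were taken as 1 window each, which gave 6 windows. Of the 65482 peaks in the authors' optimal list, 67 had their summit in these windows. CTCF binding had been measured by chromatin immunoprecipitation and sequencing in whole kidney of newborn B6NCrl mice, at an age of 0 days. The 2 libraries, replicates 1 and 2, formed 1 group. Biosample and donor identifiers in the labels are shared by both, so their spread may be technical. Sex is recorded as not collected, no second condition is labelled, and the peak lists hold no RNA, so neither the kidney's cell types nor expression of these genes could be checked.

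The glomerular basement membrane lies between the podocytes and the endothelium of the kidney's filter and is made by both. Its collagen begins as a network of the Col4a1 and Col4a2 chains and is replaced during glomerular maturation by a network of the Col4a3, Col4a4 and Col4a5 chains. Its laminin ends as a trimer of the Lama5, Lamb2 and Lamc1 chains, and agrin is its main heparan sulphate proteoglycan. In people, mutations of COL4A3, COL4A4 or COL4A5 cause Alport syndrome, and mutations of LAMB2 cause Pierson syndrome. CTCF is a zinc finger protein that binds an asymmetric DNA motif, stops loop extrusion by cohesin and marks many loop anchors and insulators. Loop anchors tend to carry motifs that point towards each other, so the direction of each motif is given below as forward or reverse on the mm10 assembly.

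The signal of each peak is given as a percentile within the 65482 optimal peaks, with 100 the highest, because nothing shows the authors' signal value to be scaled for depth. A peak's rank in each library is its place by signal in that library's own list of 300000 peaks, with rank 1 the highest, and the upper set of a library is its 65482 highest-ranked peaks. A promoter peak is a peak whose summit lay within 1 kb of an annotated transcription start site in GENCODE M21. A motif match is the best place for a 19-base CTCF matrix within 100 bp of the summit, at a score that 1 in 10000 control positions passed.

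The 10 peaks of the windows at or above the 90th percentile carried the matches printed here, each with 20 reference bases on either side. They are shown because they are the matches at the strongest peaks of the windows. Capitals mark the 19-base match, and each sequence is written 5′ to 3′ on the strand that holds it, from the GRCm38.p6 genome (mm10).
Col4a1, intron 2, chr8:11253658-11253716, plus strand: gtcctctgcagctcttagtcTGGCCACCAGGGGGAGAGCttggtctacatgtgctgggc
Col4a1, intron 40, chr8:11215440-11215498, minus strand: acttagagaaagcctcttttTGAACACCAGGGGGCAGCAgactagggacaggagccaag
Col4a2, intron 4, chr8:11392953-11393011, minus strand: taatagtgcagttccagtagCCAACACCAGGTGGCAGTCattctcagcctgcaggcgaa
Past the 3′ end of Col4a1, at Gm15418, chr8:11187673-11187731, minus strand: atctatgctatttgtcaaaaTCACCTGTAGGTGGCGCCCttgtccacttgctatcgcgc
Past the 3′ end of Col4a2, chr8:11486218-11486276, minus strand: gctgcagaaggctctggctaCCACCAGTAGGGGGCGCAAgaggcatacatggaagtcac
Col4a3, intron 2, chr1:82641842-82641900, minus strand: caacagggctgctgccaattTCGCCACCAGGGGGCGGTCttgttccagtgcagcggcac
Past the 3′ end of Col4a4, in Rhbdd1, chr1:82433525-82433583, minus strand: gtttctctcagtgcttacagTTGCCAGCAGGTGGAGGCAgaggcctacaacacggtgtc
Past the 3′ end of Lama5, at Adrm1, chr2:180171376-180171434, plus strand: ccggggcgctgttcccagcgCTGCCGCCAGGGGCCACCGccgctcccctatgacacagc
Upstream of Lama5, chr2:180251432-180251490, minus strand: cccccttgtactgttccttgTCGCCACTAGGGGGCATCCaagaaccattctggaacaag
Upstream of Lamb2, in Klhdc8b, chr9:108452784-108452842, minus strand: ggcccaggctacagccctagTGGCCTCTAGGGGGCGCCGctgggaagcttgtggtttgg
All 10 of these matches had the same base at 5 of their 19 positions, and 2 of the 10 lay on the plus strand. Agreement between them is partly built in, because each was found as the best place for the same matrix. The match in Col4a3 had the highest score of the 10, at 23.1, against a threshold of 12.5. The match at Adrm1 had the lowest, at 16.5.

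The 4 collagen chain genes had no peak at their shared promoters. Col4a1 and Col4a2 are transcribed away from each other on chromosome 8, and their annotated transcripts overlap by 22 bases at the 5′ ends. The nearest summit lay 30.2 kb from them, in intron 1 of Col4a1, and the nearest on the Col4a2 side lay 42.4 kb away. Col4a4 and Col4a3 are transcribed away from each other on chromosome 1, with 5′ ends 72 bp apart. The nearest summit lay 10.5 kb away, in intron 1 of Col4a4, and the nearest on the Col4a3 side lay 54.9 kb away.

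Both collagen promoters sat in long stretches without a peak, 72.6 kb at Col4a1 and Col4a2 and 65.5 kb at Col4a3 and Col4a4, against a median of 35.5 kb around the 5′ ends of all protein-coding genes. Such a stretch was shorter at 69.7% and 67.2% of all genes. Among the 2 collagen pairs 0 had a peak within 1 kb of either 5′ end, against 617 of 1211 head-to-head pairs of protein-coding genes with 5′ ends up to 1 kb apart (50.9%). Over those 1211 pairs the median distance to the nearest summit was 898 bp, and 94.7% of them had a nearer summit than Col4a1 and Col4a2 and 78.9% a nearer one than Col4a4 and Col4a3. The third collagen pair of this family, Col4a5 and Col4a6 on the X chromosome, had 5′ ends 1309 bp apart, outside that limit, and its nearest summit lay 53370 bp from Col4a6 and 54679 bp from Col4a5, at the 49.7th percentile.

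The count of 0 at Col4a1 and Col4a2 depended on the library. In replicate 2 a peak 102 bp from the 5′ end of Col4a2 ranked 58624, inside that library's upper set, so the count is 1 of 2 pairs without replicate 1 (52.4% of all head-to-head pairs). In replicate 1 the best peak within 1 kb of the same promoter ranked 78989, outside the upper set. At Col4a3 and Col4a4 neither library listed any peak within 1 kb, and the pooled list held 1 there, at rank 290673 of 300000. Among all genes 65.7% in replicate 1 and 60.9% in replicate 2 had a listed peak that near to their 5′ end. The 71 bases between the 5′ ends of Col4a4 and Col4a3, shown because this short stretch separates the pair and held no summit, had a GC content of 69.0%.
Between Col4a4 and Col4a3, chr1:82586850-82586920, plus strand: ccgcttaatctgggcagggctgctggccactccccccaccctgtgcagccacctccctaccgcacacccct

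**Figure D1:**
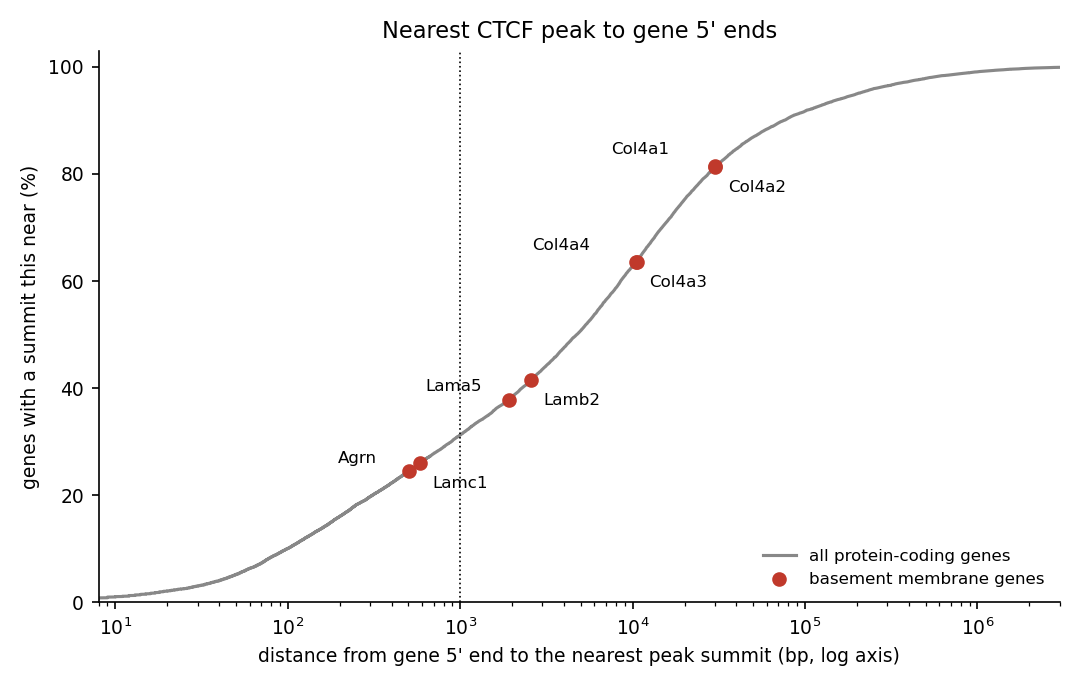
Cumulative share of all protein-coding genes (y axis, %) by the distance from the gene's 5′ end to the nearest peak summit (x axis, bp, log scale), with the 8 basement membrane genes as red points and 1000 bp as a dotted line. Agrn (504 bp) and Lamc1 (582 bp) lie left of the dotted line, Lama5 (1908 bp) and Lamb2 (2563 bp) just right of it, and the collagen genes at 10470 to 30219 bp.

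The window of Col4a1 and Col4a2 held more peaks per length than most gene windows. It spans 350.9 kb (chr8:11148423-11499287) and held 27 peaks, or 7.70 per 100 kb, against a median of 4.45 over the windows of all protein-coding genes (quartiles 1.95 and 7.36), and 77.3% of gene windows were less dense. Of the 27, 7 lay in Col4a1, 14 in Col4a2 and 6 in the flanks. Per 100 kb of gene this is 6.12 for Col4a1 and 10.3 for Col4a2. Intron 4 of Col4a2, which spans 44.3 kb, held 5 peaks, and the 9 others lay between intron 9 and intron 41.

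The highest signal in the window was in intron 2 of Col4a1, 59.1 kb downstream of its 5′ end, at the 99.4th percentile. It ranked 1347 in replicate 1 and 395 in replicate 2. The next was in intron 4 of Col4a2, 80.2 kb downstream of that gene's 5′ end, at the 99.2nd percentile, with ranks 467 and 909 in replicates 1 and 2. These 2 summits lay 139.3 kb apart on either side of the shared promoter. The motif of the first was forward and that of the second reverse, so they pointed towards each other across the promoter.

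Col4a1 held 1 other strong peak, in intron 40, at the 92.2nd percentile, with ranks 6831 and 4179 in replicates 1 and 2. Its other 5 peaks lay between the 6.70th and the 38.5th percentile, and 1 of them, at the 37.4th, was in the UTR of the last exon (exon 52). Col4a1 counted among the genes with a promoter peak through an internal start site alone: a summit in intron 1, 344 bp from that site and 33.5 kb from the gene's 5′ end, at the 21.8th percentile. That peak ranked 46336 in replicate 1 and 90091 in replicate 2, outside the upper set of replicate 2, and had no motif match.

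The peaks nearest to the promoter on each side were weaker than the strongest ones farther out. The nearest in Col4a1 lay at the 38.5th percentile (ranks 39964 and 48739 in replicates 1 and 2), and the nearest in Col4a2 at the 54.2nd (ranks 28249 and 33659). Both had forward matches, shown here because they bound the peak-free stretch of the shared promoter.
Col4a1, intron 1, chr8:11282574-11282632, plus strand: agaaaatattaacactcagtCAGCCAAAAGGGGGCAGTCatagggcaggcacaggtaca
Col4a2, intron 4, chr8:11355222-11355280, plus strand: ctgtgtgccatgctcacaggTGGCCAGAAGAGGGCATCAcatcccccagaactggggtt
The match in Col4a2 lay in soft-masked sequence, that is, in an annotated repeat, and the match in Col4a1 did not.

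In the 3′ part of Col4a2, 4 peaks within 11001 bp, from intron 20 to intron 29, lay between the 70.2nd and the 85.4th percentile. The highest of these, in intron 20, ranked 7476 in replicate 1 and 11808 in replicate 2. A pair of weaker peaks 515 bp apart in intron 41, at the 22.3rd and 26.6th percentiles, carried identical 19-base matches, and their 59-base surroundings differed at 2 bases. Both lie in soft-masked sequence, and with copies this alike the source of a read is uncertain. The 2 copies are printed for that reason.
Col4a2, intron 41, chr8:11442317-11442375, minus strand: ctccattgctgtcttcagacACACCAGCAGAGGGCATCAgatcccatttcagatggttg
Col4a2, intron 41, chr8:11442811-11442869, minus strand: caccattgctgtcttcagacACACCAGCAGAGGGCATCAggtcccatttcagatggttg
They ranked 56345 and 48561 (first copy) and 69977 and 37657 (second copy) in replicates 1 and 2.

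The flanks of the Col4a1 and Col4a2 window held 2 more peaks above the 90th percentile. One lay past the 3′ end of Col4a1 at the 97.9th percentile, with ranks 638 and 3557 in replicates 1 and 2. It was 51 bp from a start site of Gm15418, a long noncoding RNA gene whose body reaches into Col4a1. The other lay past the 3′ end of Col4a2 at the 93.5th percentile, with ranks 1897 and 7578. Nearest to the genes among the matches outside them were a reverse match 1640 bp past the 3′ end of Col4a1, at the 10.98th percentile and unlisted in replicate 2, and a forward match 1559 bp past the 3′ end of Col4a2, at the 77.2nd. Of the 27 peaks of the window 19 had a match, 10 forward and 9 reverse.

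Col4a3 and Col4a4 had fewer peaks for their length. Their window of 373.6 kb (chr1:82398423-82772059) held 9 peaks, or 2.41 per 100 kb, and 28.7% of single-gene windows were less dense. In its own window Col4a3 had 2.98 per 100 kb (35.3% of genes less dense) and Col4a4 had 2.52 (29.6%). Col4a4 held 5 of the 9, Col4a3 held 1 and the flanks 3. The longest stretch without a summit was 117.9 kb and covers most of Col4a3, to the right of its peak.

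The 1 peak in Col4a3 was among the strongest of the list and lay in intron 2, 54.9 kb downstream of the 5′ end. It lay at the 99.1st percentile and ranked 776 in replicate 1 and 675 in replicate 2, with a reverse match. In Col4a4 the strongest was in intron 37 at the 89.3rd percentile (ranks 7885 and 6978 in replicates 1 and 2), also with a reverse match. A pair of forward matches lay nearer to the promoter, in intron 4 at the 75.7th percentile and in intron 1 at the 71.5th.

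The peak at the 71.5th percentile lay 14.9 kb into Col4a4 and ranked 19350 in replicate 1 and 18318 in replicate 2. Its match is the nearest to the shared promoter of Col4a4 and Col4a3 and is shown for that reason.
Col4a4, intron 1, chr1:82571926-82571984, plus strand: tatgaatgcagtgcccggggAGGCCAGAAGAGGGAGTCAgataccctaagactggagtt
It lies in soft-masked sequence and shares 16 of 19 bases with the repeat-borne match nearest to the Col4a2 promoter, and 35 of 59 bases when the flanks are counted. The summit nearest to the promoter, 10.5 kb from the 5′ end of Col4a4 at the 24.9th percentile, had no match, and ranked 48571 and 51991 in replicates 1 and 2. The forward match in intron 1 of Col4a4 and the reverse match in Col4a3 lay 69.9 kb apart on either side of the shared promoter and pointed towards each other. These are the nearest matches on each side, while the pair described at Col4a1 and Col4a2 was that of the strongest peaks. By nearest match, both at Col4a1 and Col4a2 were forward. By strongest peak, both in the window of Col4a3 and Col4a4, at the 99.1st and 94.5th percentiles, were reverse.

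In the flanks, a peak in Rhbdd1, 14869 bp past the 3′ end of Col4a4, lay at the 94.5th percentile, with ranks 2298 and 5875 in replicates 1 and 2. On the other side 2 peaks in Tm4sf20 lay at the 48.6th and 34.6th percentiles. The nearer of these, 37684 bp past the 3′ end of Col4a3, ranked 35171 and 31958. Of the 9 peaks 8 had a match, 2 forward and 6 reverse, and 8 were in the upper set of both libraries.

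**Figure D2:**
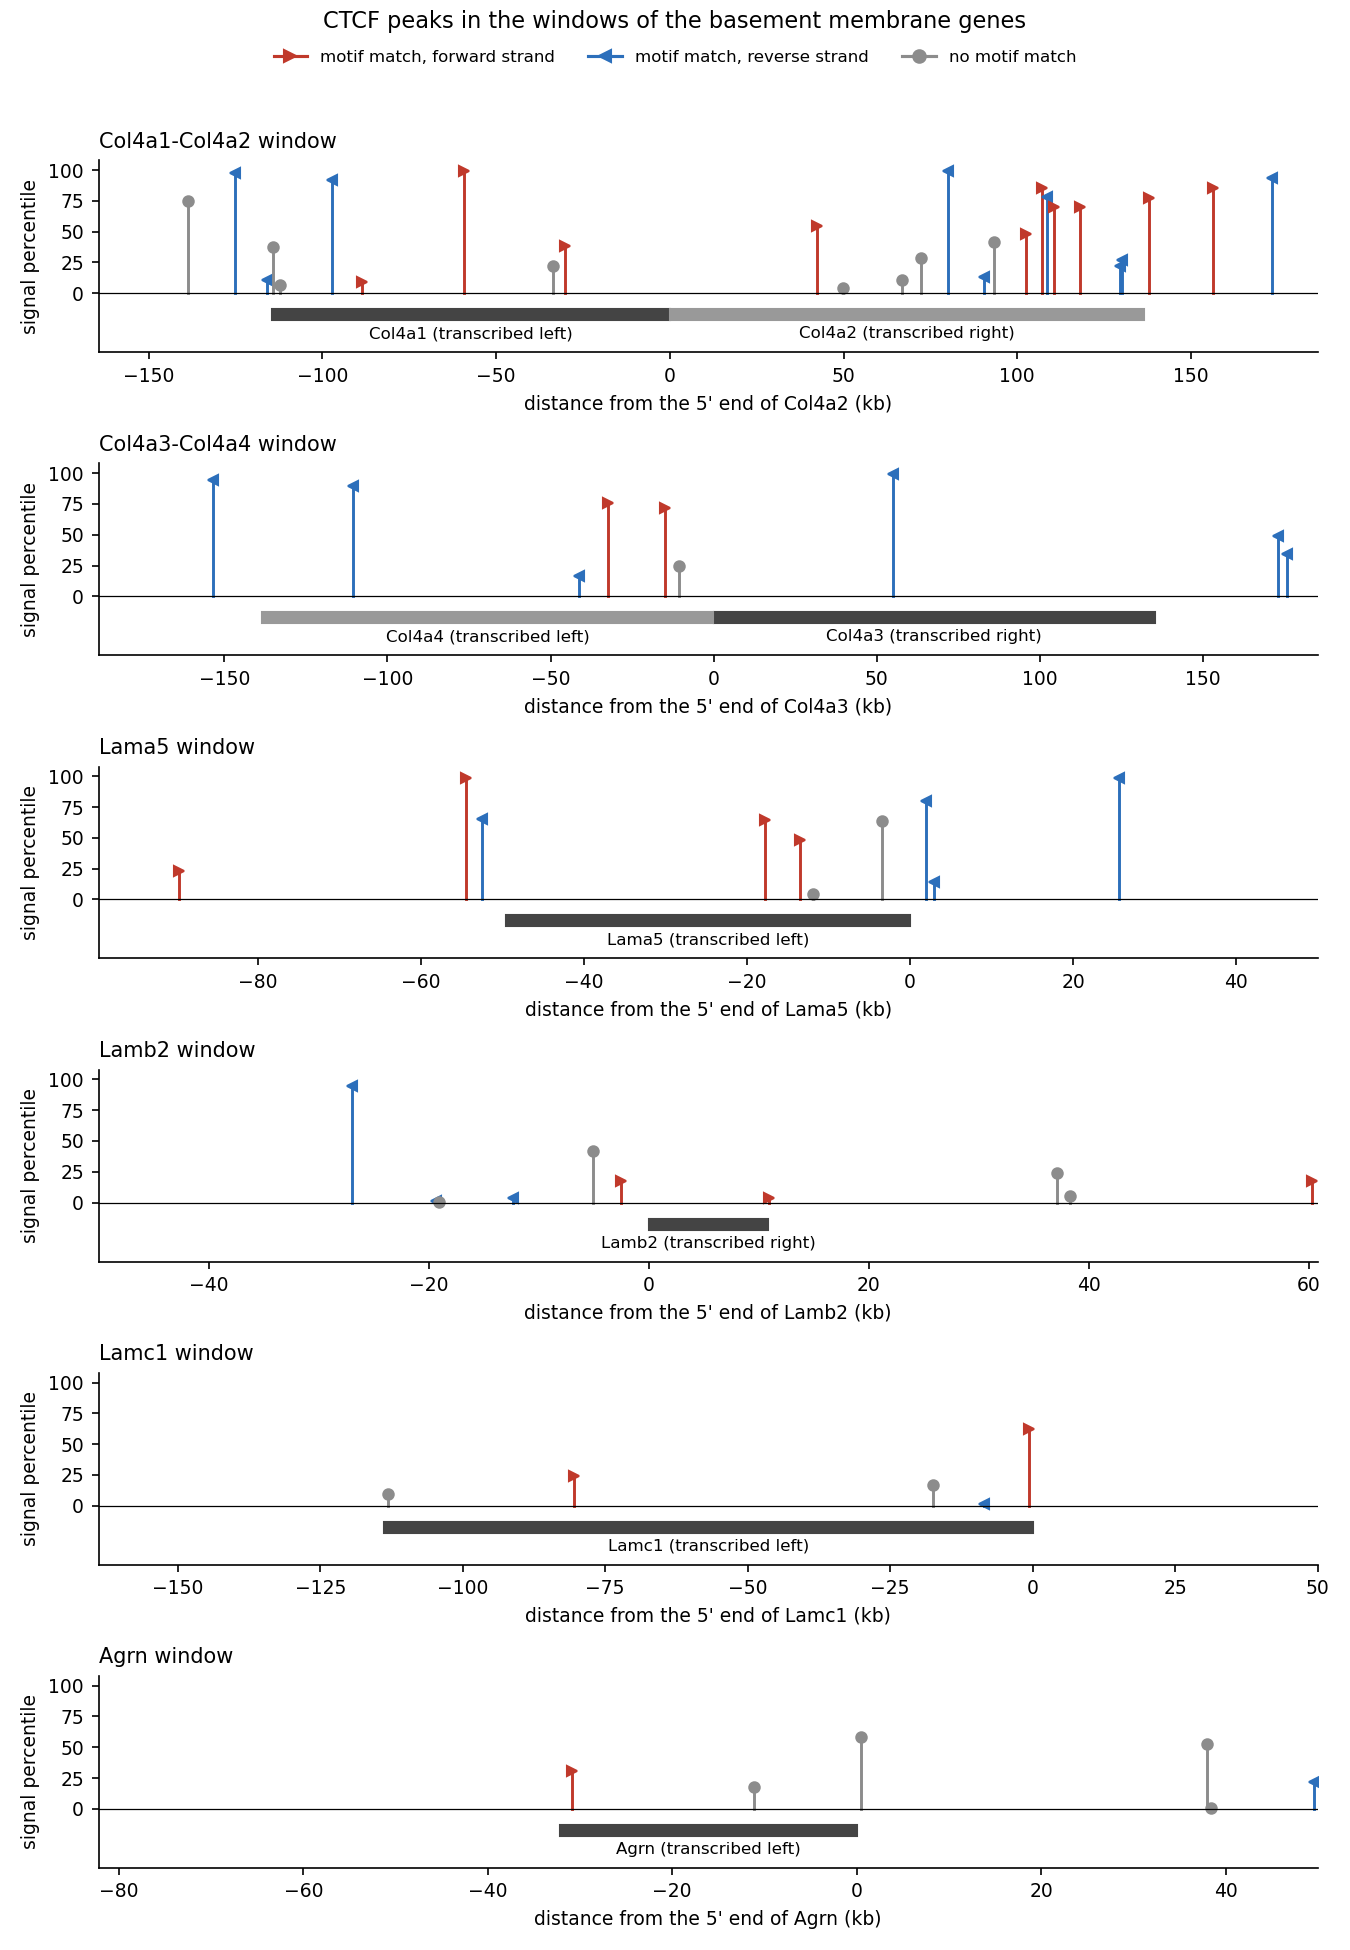
Each panel shows 1 window, with the distance from the named gene's 5′ end on the x axis (kb, in mm10 direction) and the signal percentile of each peak on the y axis. Triangles show the direction of the motif match, grey circles are peaks without one, and bars under the axis are the genes. Both collagen pairs show an empty stretch over the shared 5′ ends and a strong reverse match to its right. In Col4a3 this match, at the 99.1st percentile, bounds the stretch. In Col4a2 it lies farther out, at the 99.2nd, and a forward match at the 54.2nd bounds the stretch.

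The laminin chain genes differed among themselves. Lamc1 had a peak at its promoter, Lama5 and Lamb2 had one 1908 and 2563 bp upstream, and Lamb2 had none in its body. The Lama5 window (chr2:180126373-180275859) held 10 peaks, 4 in the gene and 6 in the flanks, or 6.69 per 100 kb. The Lamb2 window (chr9:108429736-108540530) held 10 peaks, all in the flanks, or 9.03 per 100 kb. The Lamc1 window (chr1:153168922-153382786) held 5 peaks, all in the gene, or 2.34 per 100 kb.

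Lama5 encodes the alpha chain of the laminin trimer of the mature membrane. The summit nearest to its 5′ end lay 1908 bp upstream at the 80.0th percentile and ranked 10328 in replicate 1 and 16236 in replicate 2. Of all genes 37.9% had a nearer summit, and the median distance over all genes was 4740 bp. The reverse match of this peak is shown because it is the nearest to the Lama5 promoter.
Upstream of Lama5, chr2:180227741-180227799, minus strand: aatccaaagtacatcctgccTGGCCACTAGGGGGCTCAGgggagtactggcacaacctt
Within 1 kb of the 5′ end itself both libraries listed peaks, the best at rank 80835 in replicate 1 and 99051 in replicate 2, below the upper set in each.

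The 2 strongest peaks of the Lama5 window flanked the gene. One lay 107 bp from a start site of Adrm1, which encodes a ubiquitin receptor of the proteasome, at the 98.9th percentile, with ranks 1762 and 530 in replicates 1 and 2 and a forward match. The other lay upstream of Lama5 at the 98.7th percentile, with ranks 487 and 1867 and a reverse match. They were 80.1 kb apart and pointed towards each other with the whole gene between them. Inside Lama5 the 4 peaks were in introns 1 to 3, at the 63.8th, 4.72nd, 48.2nd and 64.2nd percentiles from 5′ to 3′.

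Lamb2 encodes the beta chain of the same trimer and is the shortest of the 8 genes, at 10.8 kb. No summit lay in it. The nearest to its 5′ end lay 2563 bp upstream at the 17.7th percentile, with ranks 97767 and 37457 in replicates 1 and 2, so it was in the upper set of replicate 2 alone. Its forward match lay in soft-masked sequence. The conservative list, a smaller list of 59444 peaks that the authors made from the same libraries, held a peak 793 bp upstream of the 5′ end at its 3.74th percentile, which the optimal list did not.

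The 10 peaks around Lamb2 were mostly weak, with a median at the 11.5th percentile, and 8 of them lay below the 25th. The highest was a peak 7 bp from an annotated start site of Klhdc8b, at the 94.4th percentile with a reverse match, which ranked 5079 in replicate 1 and 3186 in replicate 2. Weak promoter peaks at Usp19 (3.28th percentile), Qrich1 (23.9th and 5.66th) and the shared promoter of Ccdc71 and Klhdc8b (1.41st and 0.44th) made up 5 of the 10. The last 2, 228 bp apart, fell on the same peak in each library, at rank 72538 in replicate 1 and 76295 in replicate 2. The count around Lamb2 is 3 without replicate 2 and 8 without replicate 1.

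Lamc1 encodes the gamma chain shared by most laminin trimers. Its promoter peak lay 582 bp downstream of the 5′ end, in the coding sequence of exon 1, at the 62.3rd percentile. It ranked 24361 in replicate 1 and 24021 in replicate 2, nearly the same place in both. The whole peak is shown because it is the 1 peak with a motif match at a member's 5′ end.
Lamc1, exon 1, chr1:153332128-153332237, plus strand, gene on the minus strand: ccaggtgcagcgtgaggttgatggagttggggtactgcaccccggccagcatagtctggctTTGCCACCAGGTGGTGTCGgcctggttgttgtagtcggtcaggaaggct
The other 4 peaks of Lamc1 were weak, at the 23.8th, 16.4th, 9.21st and 1.65th percentiles, and 2 of them lay in intron 1, which spans 69.4 kb. No summit lay in either flank, and the nearest matches outside the gene were 53044 bp upstream and 83235 bp past its 3′ end, both beyond the window.

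Agrn had a peak 504 bp upstream of its 5′ end, at the 58.0th percentile. It ranked 28172 in replicate 1 and 26650 in replicate 2. The best score for the CTCF matrix in it was 11.7, short of the threshold of 12.5, and the whole peak is shown because it is the other peak at a member's 5′ end and holds no match. It is written on the strand of the gene and has no capitals.
Upstream of Agrn, chr4:156197922-156198017, minus strand: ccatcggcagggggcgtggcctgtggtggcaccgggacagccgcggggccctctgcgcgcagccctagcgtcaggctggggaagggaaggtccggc
A further peak in intron 2, 234 bp from an internal start site, lay at the 17.4th percentile (ranks 46694 and 73671), and 1 in the coding sequence of the last exon, exon 36, lay at the 31.1st (ranks 47497 and 43903).

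The window of Agrn (chr4:156115290-156247488) held 6 peaks, or 4.54 per 100 kb, and 50.8% of gene windows were less dense. The count is 3 without replicate 1 and 7 without replicate 2. The 4 peaks outside the gene lay upstream of it, and 2 of them, at the 52.3rd and 0.46th percentiles, were 503 bp apart at the promoters of Noc2l and Plekhn1. The highest percentile in the Agrn window was 58.0, and that in the Lamc1 window 62.3, against a median of 91.1 over the windows of all genes. The other 4 windows each had a peak at or above the 94.4th percentile.

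**Figure D3:**
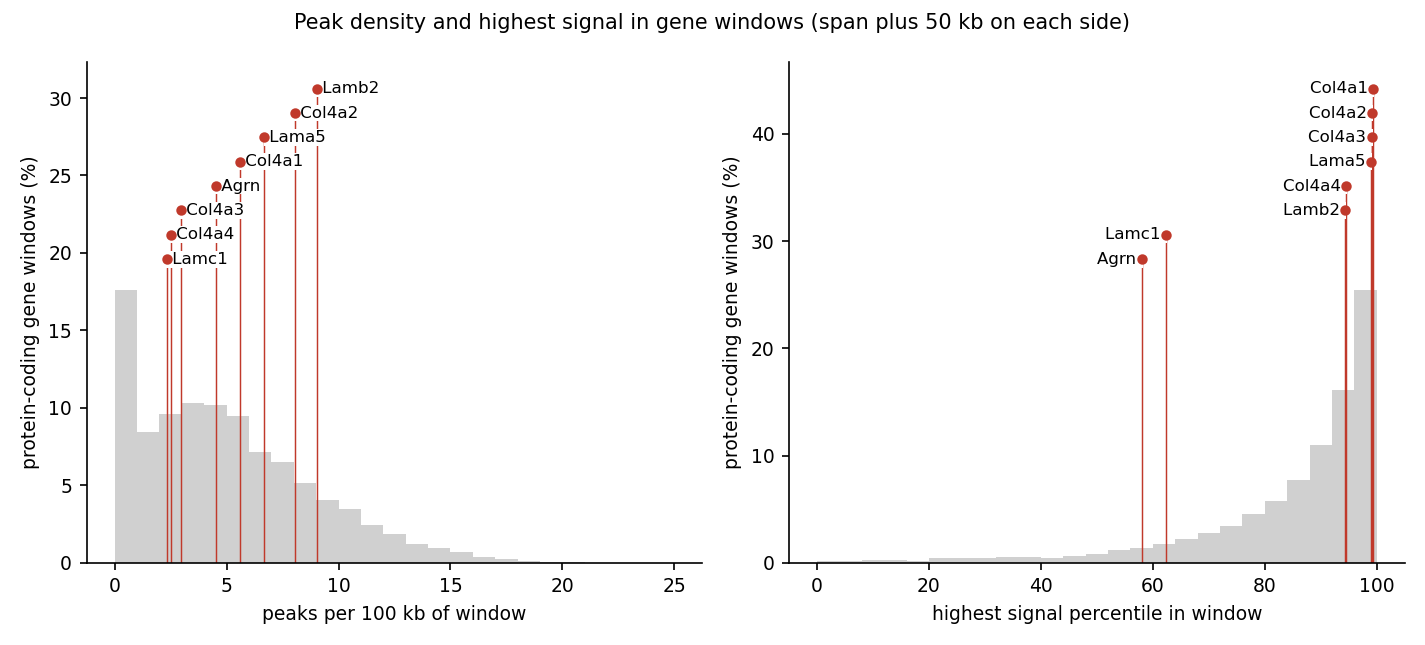
Histograms (grey, % of 21755 protein-coding gene windows) of peaks per 100 kb (left) and of the highest signal percentile in a window (right; windows without a peak, 11% of all, are not drawn), with each basement membrane gene's own window as a red line. In the left panel the genes spread from Lamc1 (2.34) to Lamb2 (9.03). In the right panel Agrn and Lamc1 stand apart from the other 6, which lie at or above 94.4.

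Counted together, 3 of the 8 basement membrane genes had a promoter peak (Col4a1, Lamc1 and Agrn), against 39.4% of the 21755 protein-coding genes. At the 5′ end alone 2 did (Lamc1 and Agrn), against 31.3% of all genes. Both shares are near those of all genes. Which genes were counted moved with the list: the conservative list gave Lamb2, Lamc1 and Agrn, and replicate 2 alone gave Col4a1, Col4a2, Lamc1 and Agrn. Lamc1 and Agrn had a promoter peak in the optimal list, the conservative list and the upper set of each library at this distance of 1 kb. Within 500 bp in the optimal list Lamc1 (582 bp) was no longer counted, and Agrn (504 bp at its 5′ end) stayed through its internal start site alone. The genes counted were Col4a1 and Agrn, against 32.1% of all genes. Other lists held a peak nearer to the 5′ end of Lamc1: the conservative list 136 bp away, at its 7.45th percentile, and the upper set of replicate 1 138 bp away, at rank 60186.

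Of the 67 peaks 38 lay in a member gene and 29 in a flank. By place, 2 were at a member's 5′ end, 2 at an internal start site, 35 elsewhere in a member's body, 10 at the promoter of another gene, 9 in the body of another gene and 9 between genes. The 38 inside member genes fell in introns in 34 cases, in coding exons in 2 and in a UTR in 2. The 9 peaks between genes had a median at the 75.3rd percentile and the 10 at promoters of other genes at the 14.8th, against the 38.5th in member bodies. These classes are small and wide, from the 3.98th to the 98.7th percentile between genes and from the 0.44th to the 98.9th at promoters of other genes. The last class includes the weak promoter peaks around Lamb2. No share or median by place over all optimal peaks stands beside these values, so they are not read as a trait of these genes.

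A CTCF motif match was found in 46 of the 67 peaks, 68.7% (Wilson 95% interval 56.8 to 78.5%, counting error only). The interval treats the peaks as independent, although some share a library peak or lie in near-identical copies. The share was 72.6% among the 20760 peaks on the same 5 chromosomes and 3.38% among control windows placed 2 kb away. That control share largely follows from the threshold, which was set on control positions at the same distance on other chromosomes. The matches were 22 forward and 24 reverse, and 17 of the 46 lay in soft-masked sequence. Peaks with a match had a median at the 58.2nd percentile and peaks without one at the 21.8th, against the 59.0th and 29.6th over all peaks of these chromosomes. Each of the 10 peaks at or above the 90th percentile had a match (95.5% over all peaks), and 15 of the 28 below the 25th had one (52.1% over all).

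Most peaks at or above the 25th percentile passed in both libraries and most below it did not, as over all peaks. Percentile and library rank come from the same libraries, so this pattern is largely built in and does not test reproducibility. Of the 67 peaks 44 were in the upper set of both libraries, 65.7%, against 78.0% of the 65470 optimal peaks on 20 chromosomes. Of the 39 peaks at or above the 25th percentile 37 were in both upper sets (95.9% over all peaks), and of the 28 below it 7 were (24.1% over all). Below the 25th percentile lay 41.8% of the windows' peaks, where the list as a whole has 25% by construction, and 8 of these 28 were around Lamb2 and 8 in the window of Col4a1 and Col4a2. A peak of the conservative list overlapped 50 of the 67, 74.6%, against 84.2% of all. Replicate 1 listed a peak under each of the 67, and replicate 2 under 63. The 4 it lacked were 3 in the window of Col4a1 and Col4a2, at the 10.98th, 9.42nd and 28.2nd percentiles, and the peak at the 0.46th percentile upstream of Agrn.

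**Figure D4:**
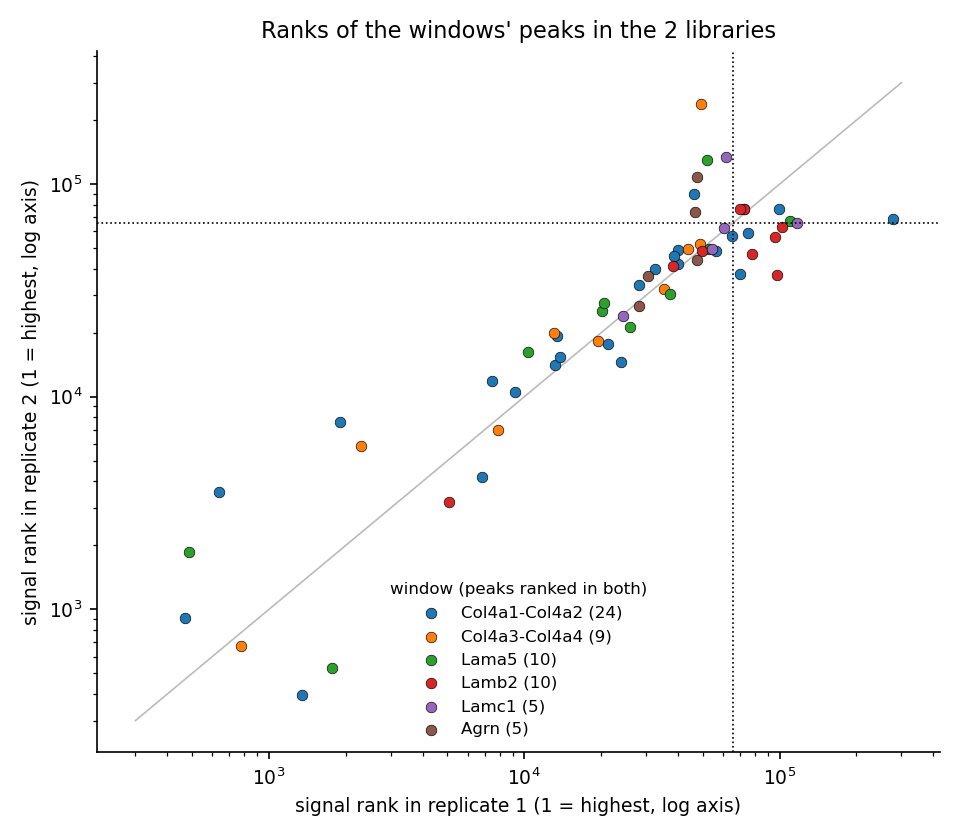
Signal rank in replicate 1 (x axis, log scale, 1 the highest) against replicate 2 (y axis, log scale) for the 63 peaks listed in both libraries, coloured by window, with the diagonal in grey and rank 65482, the limit of the upper set, dotted. Ranks of the 28 peaks above the 50th percentile differed between libraries by up to 5.58-fold (median 1.39-fold). All 28 lie inside both dotted lines, which is largely built in, because the percentile comes from the same libraries.

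The arrangement of the 2 strongest matches around each gene was looked at after their values had been seen. In the gene's own window they pointed towards each other across the 5′ end at 3 of the 8 genes (Col4a3, Lama5 and Agrn), against 10.8% of the 16758 genes with at least 2 matches. At Col4a4 and Lamc1 they pointed the same way and at Lamb2 apart, and they did not span the 5′ end. At Col4a1 they pointed apart and at Col4a2 the same way, because each single-gene window leaves out 1 of the 2 strong peaks on either side of the shared promoter. The result at Col4a3 also depends on the window: in the joint window of Col4a3 and Col4a4 the 2 strongest matches were both reverse. At Agrn the pair is weak, at the 31.1st and 21.6th percentiles. These are the only 2 matches of its window, and the first lies 89 bp from its summit. No contact data were used here, so whether these sites form loops was not tested.

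RefSeq promoter sequences (GRCm38.p6, 250 bases before to 50 after the start) were matched by symbol for 6 of the 8 genes, 7 promoters in all, the exceptions being Col4a3 and Lamc1. The CTCF matrix, searched on both strands, passed its threshold in 1 of the 7, that of Lama5, with a score of 13.4, against 8.71% of 32851 promoters of the same length. The GC content was 83.3% at Agrn, 74.0% at Col4a1, 73.7% at Col4a2, 72.7% at Lama5, 63.3% at Col4a4 and 44.0% at Lamb2, against a median of 52.7%. The second Agrn promoter, at the internal start site, had 61.3%.

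Other genes of the basement membrane pathway were described by 3 lists. Of 28 further structural genes 14 had a promoter peak, against 39.4% of all genes. The highest were at Lama1, the alpha chain of an early laminin of the developing kidney epithelium (96.3rd percentile, ranks 2052 and 3043 in replicates 1 and 2), and Lamb3 (87.1st), Lamc3 (83.2nd) and Hmcn1, which encodes hemicentin (74.7th). All 4 had a motif match. Col4a5 and Col4a6 had none, nor did Lamb1 or the nidogen gene Nid1, while Nid2 had one at the 5.31st percentile.

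Of 17 receptor genes 11 had a promoter peak (64.7%), against 39.4% of all genes. The highest was at Itga8, the integrin chain needed for outgrowth of the ureteric bud in mouse (95.9th percentile, ranks 2275 and 3183 in replicates 1 and 2), followed by the laminin-binding integrin chain gene Itga6 (77.8th), the common beta chain gene Itgb1 (76.9th) and the collagen-binding Itga2 (68.1st). Itga3, which encodes the integrin chain by which podocytes bind the laminin of this membrane, had one at the 38.7th. The dystroglycan gene Dag1, whose product binds laminin and agrin, had none, nor did the agrin receptor genes Lrp4 and Musk.

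Of 17 genes for modification and assembly of type IV collagen 6 had a promoter peak (35.3%), near the 39.4% of all genes. The highest were at the prolyl hydroxylase gene P4ha1 (79.5th percentile) and Mia3, which serves collagen export from the endoplasmic reticulum (77.7th). P4ha3 and the lysyl hydroxylase gene Plod2 followed at the 38.9th and 18.9th. The collagen chaperone gene Serpinh1 had one at the 16.7th. Pxdn, whose product crosslinks the collagen network, had none, and neither did the lysyl oxidase gene Lox or any of Loxl1 to Loxl4. The 3 lists were chosen by name, and at the 5′ end alone 10 of the structural genes (35.7%), 8 of the receptor genes (47.1%) and 5 of the collagen modification genes (29.4%) had a peak, against 31.3% of all genes.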

How the data were processed

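CTCF chromatin immunoprecipitation was sequenced in 2 libraries of newborn mouse kidney. Per the file headers and notes, the 5 deposited lists are narrowPeak files on mm10: 1 per library, 1 pooled, and a conservative and an optimal list that the authors thresholded on the irreproducible discovery rate. For the aligner, caller and thresholds, nothing is stated (not given in the sources used here). The deposited signal value of each peak is the authors' own. It served to rank peaks inside 1 list, as a rank or a percentile, since nothing shows it to be scaled for depth. The deposited −log10 q-value is tied at its highest value for most peaks and ranked nothing. Each summit comes from the authors' deposited offset. Read counts were not used here, so depth is unknown and no precision could be set from it. Of the optimal peaks 40 of the 67 in the windows, and 53.3% of all, have a fixed width of 330 bp.

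Coordinates are 1-based and were joined with the GRCm38.p6 genome and GENCODE M21. Of 65482 optimal peaks, 65470 lie on the 20 chromosomes used. Overlap meant at least 1 bp. The 19-base CTCF matrix was learned from 42765 peaks on chromosomes without a member gene (chromosome 18 left out). Learning started from a set CTCF consensus, left out soft-masked bases and built the matrix from 28048 matches in those peaks. The score threshold was passed by 1 in 10000 control positions 2 kb from summits. The scan was tested on simulated data. Python 3.11.15, numpy 2.4.6, pandas 2.3.3, scipy 1.17.1, samtools 1.23.1 and matplotlib 3.10.9 were used. With 1 group there is no contrast, so results are descriptions without p-values. The members, the pathway lists and the choices were made with earlier results of these data known. All 8 genes are named, with each window's promoter peaks, highest peak and nearest outside matches, up to 4 genes per pathway list, and neighbours with a start site within 1 kb of a summit. Genes named beyond these, such as Itga3, Dag1 and Pxdn, were chosen for their known roles after their values were seen. Alternatives were the conservative list, each library alone, the upper 50% by signal, other promoter widths and flanks, interval overlap, 5′ ends alone and a stricter motif score.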

Additional observations from a re-analysis of the deposited data

How the results depend on the processing

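The number of the 8 genes with a promoter peak lay between 2 and 4 under the alternatives that kept a half-width of 500 or 1000 bp. Over these settings the share of all genes ranged from 19.8% (upper 50% by signal, 2 of the 8) to 41.0% (interval overlap, 4 of the 8). At 2500 bp the number was 6 (49.9% of all genes), where Col4a2, Lama5 and Lamb2 were added. Leaving out 1 library gave 3 to 4 of the 8 genes and 12 to 12 structural genes. It gave 10 to 11 receptor genes and 7 to 7 collagen modification genes. These gene counts stand beside 39.1 to 39.2% of all genes. It also gave 0 to 1 collagen pairs (48.7 to 52.4% of all head-to-head pairs). The windows then held 60 to 64 peaks, with a motif share of 60.9 to 68.3%. The 1 pair, Col4a1 and Col4a2, was counted without replicate 1. With the upper 50% of peaks by signal, 5 structural, 7 receptor and 2 collagen modification genes had a promoter peak, against 19.8% of all genes, the windows held 28 peaks and 85.7% of them had a match. Collagen modification genes numbered 11 at a half-width of 2500 bp. A flank of 100000 bp gave 101 peaks, and the stricter motif score, passed by 1 in 100000 control positions, left 25.4% of the 67 with a match. These settings count fewer or more peaks by construction. Of 54 values for single windows 39 stayed within 1.5 times the count given or within 5 percentile points, and 15 counts moved further. No paired analysis was possible because the 2 libraries form 1 group. Depth is unknown, both libraries may come from 1 biosample, whole tissue mixes cell types, and a summit in a repeat or in near-identical copies has an uncertain source.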
